A study of Mus musculus with 12 samples.

Results

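The solute carriers described here are 83 mouse genes of 30 numbered families that carry amino acids, organic acids, vitamins, nucleosides, sugars, choline and inorganic ions. Of the 16145 genes listed in at least 1 library, 160 had a name of these families, and 83 of them reached a mean of 0.5 FPKM over the 12 libraries (the deposited level, which is corrected for transcript length and library total), with an unlisted gene taken as 0. The other 77 stayed under 0.5 FPKM, and the lactate carriers Slc16a1 and Slc16a3 were left out by name. The members were thus chosen by their mean FPKM, which is given only as a description. RNA was sequenced from bone marrow-derived macrophages, marrow cells grown for 7 days with the growth factor M-CSF, in 4 groups of 3 libraries. WT cells received 120 µM 4-OI (4-octyl itaconate, a cell-permeable ester of the metabolite itaconate) for 15 h. WT cells received 15 µM hemin, the oxidised iron porphyrin of heme, for 12 h. Irg1KO cells, knocked out for Irg1 (Acod1, the enzyme that makes itaconate), received vehicle for 12 h, and so did the WT vehicle cells that serve as control for all 3 groups. The labels give neither the knockout allele nor the origin of the 3 replicates of a group, which may be separate cultures or 1 pool, and each p-value therefore covers only the variation among libraries. The 4-OI cells were kept 3 h longer than their controls, and agent and hours cannot be told apart.

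Solute carriers are membrane proteins that move a small molecule or ion across the plasma membrane or an organelle membrane, down its own gradient or coupled to a gradient of sodium, protons or another solute. Family numbers group carriers by sequence, and members of 1 family often carry chemically related cargo. In macrophages such carriers supply amino acids, phosphate and choline for growth, set cell volume and pH, and empty lysosomes of the products of digested material.

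The libraries held 9405112 to 22390882 expected counts. All 8 macrophage markers were found, with a summed level of 26639 CPM (counts scaled to a common library size) in the 4-OI group, 26090 in the hemin group, 24235 in the Irg1KO-labelled group and 24100 in the WT vehicle group, most of it from Lyz2. With hemin, Itgam (log2 fold change 0.19), Csf1r (0.15) and Cd68 (0.14) were higher and Fcgr1 (-0.22) lower. In the Irg1KO-labelled libraries Adgre1 (0.33) was higher and Csf1r (-0.22) lower. With 4-OI, 4 of the 8 moved, beside 50.4% of all tested genes. C1qa and Fcgr1 were lower (log2 fold changes -0.95 and -0.34) and Itgam and Lyz2 higher (0.25 and 0.22). Some markers of other cell types also moved with 4-OI, and their part in the carrier differences was not tested. Neutrophil S100a8 (3.69) was higher, while S100a9 (0.34) and Ngp (0.30) did not pass the test. Platelet Pf4 (0.87), the only 1 of 3 platelet markers that could be tested, was higher. Endothelial Kdr (-2.52) and Cdh5 (-1.45) were lower, while Emcn (0.48) and Pecam1 (0.13) did not pass. Osteoblast Sp7 (-1.25) and Ibsp (-2.40) were lower, while Runx2 (0.36) and Alpl (-0.09) did not pass. Stromal Postn (-0.60) was lower and Pdgfrb (0.47) and Sparc (0.28) were higher, while the other 5 tested stromal markers did not pass. Neutrophil markers summed to 37.8 CPM with 4-OI, against 7.68 CPM in WT vehicle. Of these sums, S100a8 alone held 31.2 and 2.39 CPM. Endothelial markers summed to 9.46 CPM with 4-OI, against 36.1 CPM in WT vehicle, of which Kdr alone held 4.98 and 28.6 CPM. With hemin, Kdr (-1.38), Sp7 (-0.90) and Postn (-0.27) were lower, and no other tested marker of these cell types passed. In the Irg1KO-labelled libraries S100a9 (-1.25), Ngp (-1.19), Pf4 (-0.16) and Kdr (-0.20) were lower and S100a8 (0.56) higher. The part of these shifts in the carrier differences was not tested. Stromal markers, Col1a1 among them, summed to 10286 to 11529 CPM in the Irg1KO-labelled libraries and to 1705 to 2101 CPM in the WT vehicle libraries, and all 8 that could be tested were higher in the Irg1KO-labelled libraries. Acod1 itself had 7.25, 4.20 and 8.76 FPKM in the Irg1KO-labelled libraries, against 11.3, 12.3 and 10.3 FPKM in the WT vehicle libraries (log2 fold change -0.48, SE 0.26, edgeR adjusted p = 0.194). The Irg1KO-labelled libraries thus lay below all WT vehicle libraries in FPKM, though the test was not passed. The allele is not given, and a count per gene does not show which part of it was read. This level therefore does not check the label, and the libraries are called Irg1KO-labelled throughout.

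In WT vehicle cells the members spanned 0.323 to 138 FPKM with a median of 10.8, beside a median of 9.79 FPKM over all tested genes. Only 3 members exceeded 100 FPKM, 45 exceeded 10 and 12 lay under 2, and the 10 highest held 45.7% of the members' summed FPKM. Slc6a6, the taurine carrier, led with 138 ± 5.08 FPKM (SD, n = 3 here and for each level below), followed by Slc15a3, a lysosomal carrier of histidine and small peptides, with 124 ± 5.33 FPKM, and Slc43a2, a carrier of branched-chain and aromatic amino acids, with 116 ± 5.65 FPKM. Slc6a6 lay above the other two, whose libraries overlapped, and all 3 stood apart from the rest, since the fourth in order, Slc37a2 of the sugar phosphate family, had 63.2 ± 1.90 FPKM. Slc38a10 (57.00 ± 3.53 FPKM), the potassium-chloride cotransporter Slc12a7 (51.3 ± 1.26 FPKM), the fatty acid transport protein Slc27a1 (47.4 ± 1.57 FPKM) and the copper importer Slc31a1 (47.2 ± 2.33 FPKM) came next. The levels of Slc27a1 and Slc31a1 lay within each other's spread, and so did those of the equilibrative nucleoside carrier Slc29a1 (43.9 ± 1.68 FPKM) and the phosphate carrier Slc20a1 (43.1 ± 4.30 FPKM).

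**Figure D1:**
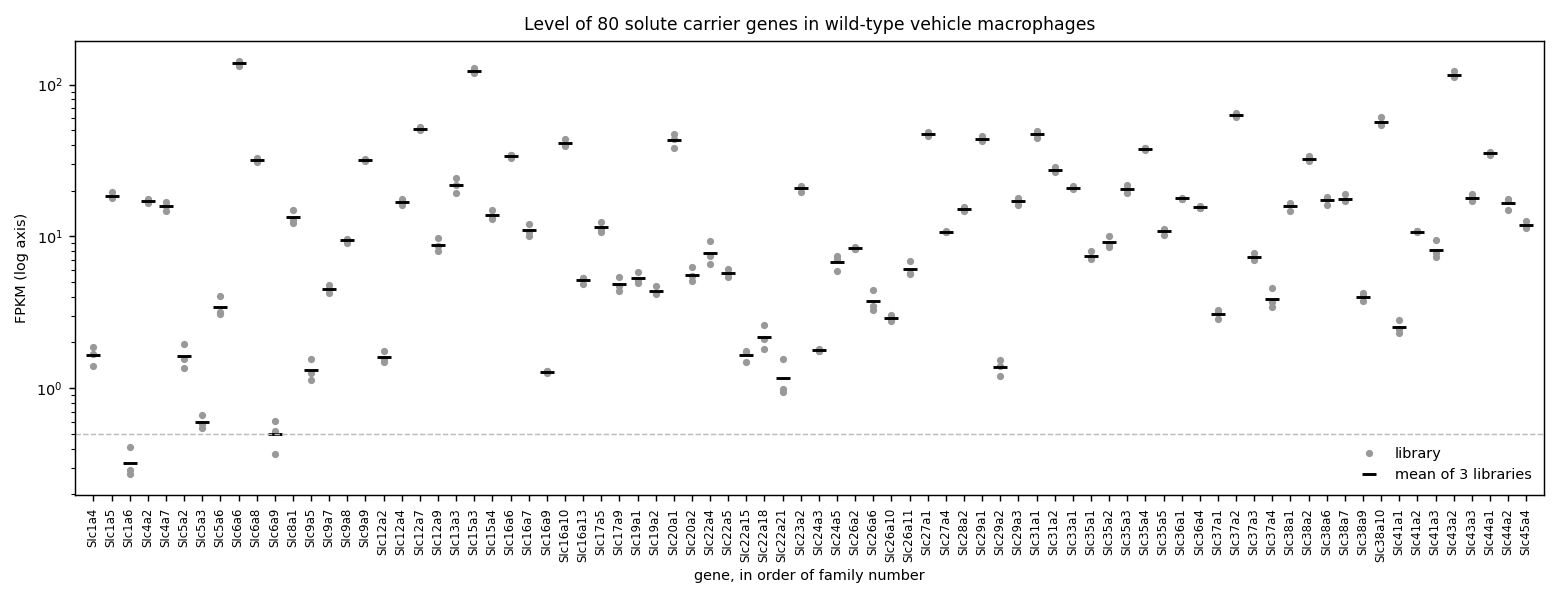
FPKM (log axis) of 80 members in WT vehicle macrophages, in order of family number; points are the 3 libraries, bars their mean, and the dashed line marks 0.5 FPKM. Slc6a6, Slc15a3 and Slc43a2 lie above 100 FPKM, and Slc1a6 is the only one of these whose mean lies under 0.5 FPKM in this group.

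At the low end, Slc1a6, a glutamate carrier, entered with a mean of 0.766 FPKM over 12 libraries only through the Irg1KO-labelled group (2.18 FPKM, against 0.323 in WT vehicle), so its difference there is a description. Slc5a3, the sodium-coupled myo-inositol carrier, entered at 0.788 FPKM and Slc22a21, a mouse carnitine carrier, at 1.09 FPKM. Just outside lay Slc36a2 (0.439 FPKM), Slc27a3 (0.382 FPKM) and Slc43a1 (0.366 FPKM). Every family of the pattern had at least 1 member. The highest member was Slc9a9 (31.9 ± 0.39 FPKM) in the sodium-proton exchangers, Slc16a10 (40.9 ± 2.53 FPKM) in the monocarboxylate family, Slc35a4 (37.8 ± 0.51 FPKM) in the nucleotide sugar family, Slc22a4 (7.77 ± 1.39 FPKM) in the organic ion family and Slc26a2 (8.34 ± 0.12 FPKM) in the sulfate family. Smaller families were led by the choline carrier Slc44a1 (35.4 ± 1.05 FPKM), Slc33a1 (20.9 ± 0.44 FPKM), which brings acetyl-CoA into the endoplasmic reticulum, the chloride-bicarbonate exchanger Slc4a2 (17.1 ± 0.58 FPKM), the lysosomal sialic acid exporter Slc17a5 (11.4 ± 0.95 FPKM) and the magnesium carrier Slc41a2 (10.8 ± 0.072 FPKM). The replicates were close, with a median coefficient of variation of 6.19% in WT vehicle. The median ratio of the highest to the lowest group mean was 1.33, and the ratio exceeded 2 in 13 members. It was not computed for all tested genes.

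With 4-OI, Slc16a9 (a monocarboxylate carrier), Slc6a9 (the glycine carrier) and Slc22a4 (the ergothioneine carrier) were 21.2-fold, 15.7-fold and 5.2-fold higher than in WT vehicle, while the endosomal sodium-proton exchanger Slc9a9 and the purine nucleoside carrier Slc28a2 were among the lowest, with log2 fold changes of -1.61 and -1.23. With hemin, Slc6a9 and Slc22a4 rose most, 2.69-fold and 1.94-fold. In the Irg1KO-labelled libraries the amino acid exchanger Slc1a4 and the dicarboxylate carrier Slc13a3 were 3.58-fold and 2.75-fold higher. Of the 83 members, 15 passed the test in none of these 3 comparisons, 31 in 1, 26 in 2 and 11 in 3. This split was not counted over all tested genes and is only a description.

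With 4-OI, 54 of the 83 members passed the test (65.1%), 35 higher and 19 lower, beside 50.4% of all tested genes (25.4% higher, 25.0% lower). Among the tested genes that also averaged at least 0.5 FPKM, 52.6% passed. The median log2 fold change of the members was 0.02 and that of all tested genes -0.0031, so single members moved far from a median that lay near that of the transcriptome. With hemin, 23 members passed (27.7%), 16 higher and 7 lower, beside 17.2% of all tested genes (9.48% higher, 7.74% lower). Of tested genes averaging at least 0.5 FPKM, 18.3% passed with hemin. In the Irg1KO-labelled libraries, 39 members passed (47.0%), 21 higher and 18 lower, beside 39.8% of all tested genes (23.5% higher, 16.3% lower). Of tested genes averaging at least 0.5 FPKM, 38.2% passed there. A passed test here means an edgeR quasi-likelihood adjusted p under 0.05 over all 12148 tested genes. All 3 comparisons share the WT vehicle libraries. In bulk RNA, fewer cells of a type and less RNA per cell cannot be told apart.

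The split between higher and lower depends on the scaling. On the log2(FPKM + 1) scale, which divides by the library total alone, the median of all tested genes moved by -0.11 with 4-OI, and 17 members were then higher and 33 lower, beside 14.3% and 37.9% of all tested genes. With hemin the same scale gave 8 higher and 8 lower. For the Irg1KO-labelled libraries it gave 16 higher and 20 lower, RLE size factors gave 15 and 23, and DESeq2 gave 15 and 20. No member that passed the main test changed direction under any alternative run. By total level, the members took 0.737 ± 0.011% of counts with 4-OI, 0.681 ± 0.0017% with hemin, 0.666 ± 0.0058% in the Irg1KO-labelled libraries and 0.677 ± 0.012% in WT vehicle (SD, n = 3 each).

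**Figure D2:**
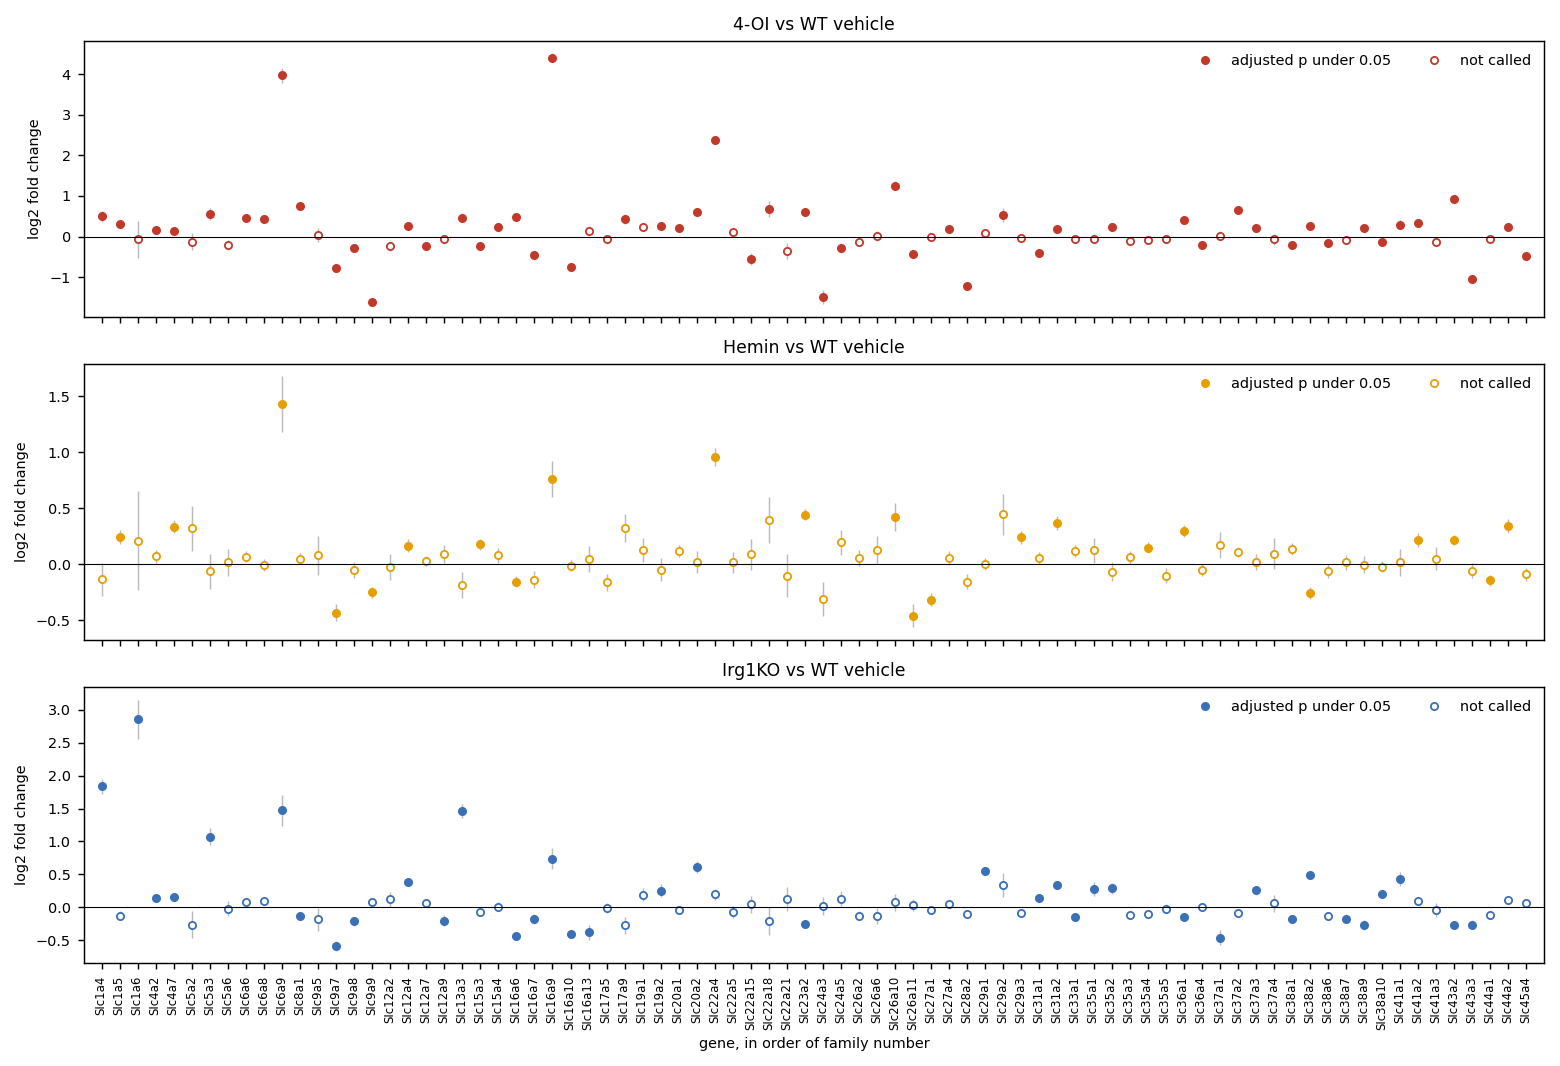
Log2 fold change of 80 members against WT vehicle with 4-OI (top), hemin (middle) and Irg1KO-labelled cells (bottom), in order of family number; bars are standard errors, filled points have an edgeR adjusted p under 0.05 and open points do not. Slc16a9, Slc6a9 and Slc22a4 stand highest with 4-OI, and Slc1a6, Slc1a4, Slc6a9 and Slc13a3 in the Irg1KO-labelled cells.

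Families 1, 6, 36, 38 and 43, whose members mostly carry amino acids and related amines, held 16 members. With 4-OI, 9 of them were higher (56.2%) and 5 lower (31.2%), beside 25.4% and 25.0% of all tested genes. The count includes the nucleobase carrier Slc43a3, which was lower, and leaves out Slc16a10, described with family 16. The glycine carrier Slc6a9 rose most. Slc6a9 had 6.27, 7.43 and 6.21 FPKM in the 4-OI libraries, 1.32, 1.23 and 1.14 FPKM in the hemin libraries, 1.78, 0.84 and 1.26 FPKM in the Irg1KO-labelled libraries, against 0.61, 0.37 and 0.52 FPKM in the WT vehicle libraries. All libraries of the other 3 groups lay above all WT vehicle libraries, and the 4-OI libraries above everything else. The log2 fold change was 3.97, SE 0.18, adjusted p = 3.74e-18 with 4-OI. It was 1.43, SE 0.25, adjusted p = 8.18e-05 with hemin and 1.47, SE 0.24, adjusted p = 7.26e-06 in the Irg1KO-labelled libraries, where it came to 0.60 on the log2(FPKM + 1) scale, on which changes of low genes are understated. The other members of family 6 were abundant and rose less with 4-OI.

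Slc6a6 had 164, 176 and 175 FPKM in the 4-OI libraries, against 132, 142 and 139.8 FPKM in the WT vehicle libraries, with no overlap (log2 fold change 0.45, SE 0.05, adjusted p = 2.85e-10). Slc6a8, the creatine carrier, had 38.4, 37.1 and 41.3 FPKM in the 4-OI libraries, against 31.4, 31.01 and 32.8 FPKM in the WT vehicle libraries (log2 fold change 0.43, SE 0.05, adjusted p = 2.77e-09). All 3 members of family 6 were thus higher with 4-OI, beside 25.4% of all tested genes. The family sum was 217 ± 7.8 FPKM with 4-OI, against 170.4 ± 5.2 FPKM in WT vehicle.

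The promoter windows of Slc6a9 are shown because it is the member with the second largest rise. They were searched for the core of the antioxidant response element, the binding sequence of NRF2, a factor that itaconate esters are known to activate. Each window runs from 250 bases before to 50 bases after a RefSeq transcription start (build GRCm38.p6). The core TGACNNNGC, sought on both strands, was found in 2 of the 3 Slc6a9 windows, at chr4:117849100-117849399 and chr4:117855297-117855596, both on the plus strand, with its first base 46 and 45 bases before the start. Capitals mark it in the sequences that follow.

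Slc6a9 window at chr4:117849100-117849399, 5′ to 3′, and at chr4:117855297-117855596, 5′ to 3′, both from RefSeq.
Slc6a9 middle start: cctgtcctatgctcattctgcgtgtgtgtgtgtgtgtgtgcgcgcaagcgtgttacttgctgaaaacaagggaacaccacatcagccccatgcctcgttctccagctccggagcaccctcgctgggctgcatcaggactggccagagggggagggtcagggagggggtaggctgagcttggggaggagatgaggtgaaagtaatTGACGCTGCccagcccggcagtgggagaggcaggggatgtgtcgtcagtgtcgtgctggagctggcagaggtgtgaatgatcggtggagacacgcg
Slc6a9 downstream start: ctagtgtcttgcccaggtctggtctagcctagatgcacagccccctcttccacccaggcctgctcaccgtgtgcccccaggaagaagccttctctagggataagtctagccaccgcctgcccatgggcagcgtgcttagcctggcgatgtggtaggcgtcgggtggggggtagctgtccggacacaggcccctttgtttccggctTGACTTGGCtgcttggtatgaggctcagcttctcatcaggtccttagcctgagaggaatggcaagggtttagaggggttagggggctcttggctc

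This core occurred in 12.4% of all 32851 RefSeq promoter windows and in 14 of the 86 windows (16.3%) of the 62 members that had an entry, which belong to 12 members. A match is a description of letters, not a bound site.

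Slc43a2 was the amino acid carrier with the highest level under 4-OI. It had 198, 193 and 199 FPKM in the 4-OI libraries, 127, 126 and 129 FPKM in the hemin libraries, 93.7, 98.9 and 92.5 FPKM in the Irg1KO-labelled libraries, against 114, 122 and 112 FPKM in the WT vehicle libraries. The 4-OI libraries lay above all others and the Irg1KO-labelled libraries below all others. With 4-OI its log2 fold change was 0.91, SE 0.05, adjusted p = 1.21e-18. It was -0.27, SE 0.05, adjusted p = 1.32e-05 in the Irg1KO-labelled libraries. Its family relative Slc43a3, which takes up purine nucleobases, moved the other way with 4-OI: it had 8.02, 7.85 and 7.94 FPKM in the 4-OI libraries, 18.03, 16.8 and 15.3 FPKM in the hemin libraries, 13.97, 14.8 and 15.5 FPKM in the Irg1KO-labelled libraries, against 18.1, 17.1 and 18.9 FPKM in the WT vehicle libraries. The 4-OI libraries were lowest (log2 fold change -1.04, SE 0.07, adjusted p = 1.37e-14).

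Family 38 holds sodium-coupled carriers of glutamine and alanine. With 4-OI, 2 of its 6 members were higher and 3 lower, beside 25.4% and 25.0% of all tested genes. Slc38a2, which is known to be induced when amino acids are scarce, had 34.2, 37.7 and 33.95 FPKM in the 4-OI libraries, 27.4, 25.8 and 24.4 FPKM in the hemin libraries, 43.9, 43.9 and 45.8 FPKM in the Irg1KO-labelled libraries, against 32.9, 31.2 and 33.6 FPKM in the WT vehicle libraries. It was higher in the Irg1KO-labelled libraries (log2 fold change 0.48, SE 0.05, adjusted p = 3.48e-10) and lower with hemin (log2 fold change -0.26, SE 0.05, adjusted p = 0.000353). Slc38a1 was lower with 4-OI, with 12.2, 12.3 and 13.2 FPKM in the 4-OI libraries, against 14.7, 16.4 and 16.6 FPKM in the WT vehicle libraries (log2 fold change -0.21, SE 0.05, adjusted p = 0.0015). Slc38a9, the lysosomal arginine sensor that signals to mTORC1, was lower in the Irg1KO-labelled libraries (log2 fold change -0.27, SE 0.08, adjusted p = 0.00577) and higher with 4-OI (log2 fold change 0.20, SE 0.08, adjusted p = 0.0299, a call lost without 4-OI replicate 2 or 4-OI replicate 3 or WT vehicle replicate 2 and on the log2 FPKM scale and with upper-quartile factors at adjusted p up to 0.444). Between 4-OI and hemin its log2 fold change was 0.20, SE 0.08, adjusted p = 0.0373, a call lost without 4-OI replicate 2 or 4-OI replicate 3 or hemin replicate 1 or hemin replicate 2 or hemin replicate 3 and on the log2 FPKM scale and with upper-quartile factors or no filter on low counts at adjusted p up to 0.156.

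In family 1, the glutamine carrier Slc1a5 had 20.3, 21.5 and 20.4 FPKM in the 4-OI libraries, against 18.1, 19.5 and 18.01 FPKM in the WT vehicle libraries (log2 fold change 0.30, SE 0.06, adjusted p = 0.000193). The lysosomal proton-coupled amino acid carrier Slc36a1 had 21.1, 21.8 and 21.3 FPKM in the 4-OI libraries, 22.4, 21.4 and 18.96 FPKM in the hemin libraries, 15.3, 15.9 and 15.99 FPKM in the Irg1KO-labelled libraries, against 17.7, 17.9 and 17.8 FPKM in the WT vehicle libraries. The libraries of both agents lay above and the Irg1KO-labelled libraries below all WT vehicle libraries. Its log2 fold change was 0.41, SE 0.05, adjusted p = 4.36e-08 with 4-OI and 0.30, SE 0.05, adjusted p = 8.04e-05 with hemin. Against WT vehicle, the Irg1KO-labelled value was -0.14, SE 0.05, adjusted p = 0.0304, a call lost without Irg1KO-labelled replicate 1 or Irg1KO-labelled replicate 2 or WT vehicle replicate 2 at adjusted p up to 0.113. The promoter window of Slc36a1 at chr11:55204090-55204389, plus strand, held the E-box core CACGTG, known as the core of sites of factors such as TFEB at lysosomal genes, at 2 places, and an antioxidant response element core that overlaps the second E-box. Capitals mark the matches.

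Slc36a1 window, RefSeq GRCm38.p6, chr11:55204090-55204389, 5′ to 3′.
Slc36a1: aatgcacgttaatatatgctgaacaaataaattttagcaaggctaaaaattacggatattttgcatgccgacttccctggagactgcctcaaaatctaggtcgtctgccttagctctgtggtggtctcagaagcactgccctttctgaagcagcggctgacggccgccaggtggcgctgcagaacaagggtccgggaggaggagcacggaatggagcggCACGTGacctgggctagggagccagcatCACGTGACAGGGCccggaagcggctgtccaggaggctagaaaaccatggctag

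The E-box core was found in 7.15% of all windows and in 16 of the 86 member windows (18.6%), which belong to 15 members.

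Among the 5 monocarboxylate carriers, 2 were higher and 2 lower with 4-OI, beside 25.4% and 25.0% of all tested genes. Slc16a9, reported in other work to export carnitine, had the largest rise of all members. It had 24.96, 23.7 and 23.9 FPKM in the 4-OI libraries, 1.46, 2.27 and 2.16 FPKM in the hemin libraries, 1.88, 1.71 and 2.62 FPKM in the Irg1KO-labelled libraries, against 1.26, 1.30 and 1.30 FPKM in the WT vehicle libraries. It was among the rarer carriers in WT vehicle, and the hemin and Irg1KO-labelled libraries also lay above all WT vehicle libraries by a smaller margin. Its log2 fold change was 4.40, SE 0.11, adjusted p = 1.46e-26 with 4-OI. It was 0.76, SE 0.16, adjusted p = 0.000672 with hemin and 0.74, SE 0.16, adjusted p = 0.000212 in the Irg1KO-labelled libraries. The single Slc16a9 window, at chr10:70245026-70245325 on the plus strand, held neither core and is shown for comparison with Slc6a9.

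Slc16a9 window, RefSeq GRCm38.p6, chr10:70245026-70245325, 5′ to 3′, with no capitals because neither core was found.
Slc16a9: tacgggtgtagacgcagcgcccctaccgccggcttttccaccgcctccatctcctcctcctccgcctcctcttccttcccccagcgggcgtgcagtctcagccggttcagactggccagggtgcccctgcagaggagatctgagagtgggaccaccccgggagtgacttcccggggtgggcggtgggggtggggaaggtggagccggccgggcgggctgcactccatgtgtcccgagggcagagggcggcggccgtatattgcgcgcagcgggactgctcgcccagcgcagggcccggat

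Slc16a6, a carrier of ketone bodies in liver, had 42.4, 44.2 and 44.7 FPKM in the 4-OI libraries, 30.5, 28.1 and 29.5 FPKM in the hemin libraries, 24.04, 23.9 and 25.6 FPKM in the Irg1KO-labelled libraries, against 34.4, 34.3 and 32.96 FPKM in the WT vehicle libraries. Its 4-OI libraries lay above and its Irg1KO-labelled libraries below all WT vehicle libraries. The log2 fold change was 0.47, SE 0.05, adjusted p = 1.1e-10 with 4-OI and -0.44, SE 0.05, adjusted p = 1.27e-09 in the Irg1KO-labelled libraries. Slc16a10, a carrier of aromatic amino acids despite its family, had 22.3, 22.98 and 22.7 FPKM in the 4-OI libraries, 38.4, 37.98 and 40.9 FPKM in the hemin libraries, 30.1, 29.9 and 30.6 FPKM in the Irg1KO-labelled libraries, against 39.8, 43.8 and 39.1 FPKM in the WT vehicle libraries. It was lower with 4-OI (log2 fold change -0.76, SE 0.05, adjusted p = 1.3e-15) and in the Irg1KO-labelled libraries (log2 fold change -0.40, SE 0.05, adjusted p = 1.03e-08), while the hemin libraries overlapped WT vehicle. Slc16a7, a high-affinity monocarboxylate carrier, was lower with 4-OI (log2 fold change -0.45, SE 0.08, adjusted p = 5.32e-06). Of the 5 members, 4 were lower in the Irg1KO-labelled libraries and only Slc16a9 higher, beside 16.3% and 23.5% of all tested genes. The family sum there was 69.7 ± 2.8 FPKM, against 92.2 ± 2.8 FPKM in WT vehicle. Of those 4, Slc16a13 was at -0.38, SE 0.12, adjusted p = 0.0078, a call lost without Irg1KO-labelled replicate 2 at adjusted p up to 0.108.

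Organic ion carriers of family 22 had 1 strong responder. Slc22a4, the carrier of the antioxidant ergothioneine, had 38.8, 38.03 and 37.3 FPKM in the 4-OI libraries, 14.03, 14.4 and 16.7 FPKM in the hemin libraries, 9.38, 9.85 and 8.90 FPKM in the Irg1KO-labelled libraries, against 7.48, 9.29 and 6.55 FPKM in the WT vehicle libraries. The order was 4-OI, then hemin, and these 2 groups did not overlap each other or WT vehicle. The log2 fold change was 2.38, SE 0.08, adjusted p = 4.02e-24 with 4-OI, 0.96, SE 0.08, adjusted p = 7.98e-11 with hemin and 0.19, SE 0.09, adjusted p = 0.0774 in the Irg1KO-labelled libraries, where the call was not made. Its neighbours in the family, the carnitine carriers Slc22a5 and Slc22a21, did not pass in any comparison. Slc22a5 had 5.66 ± 0.17 FPKM with 4-OI, against 5.75 ± 0.38 FPKM in WT vehicle, and Slc22a21 had 0.93 ± 0.17 FPKM with 4-OI, against 1.16 ± 0.34 FPKM in WT vehicle. Slc22a15 was lower with 4-OI, with 1.00, 0.81 and 1.08 FPKM in the 4-OI libraries, against 1.48, 1.75 and 1.72 FPKM in the WT vehicle libraries (log2 fold change -0.55, SE 0.15, adjusted p = 0.00194).

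The RefSeq window of Slc22a4 (chr11:54028055-54028354, GRCm38.p6, minus strand, printed 5′ to 3′ on the gene's strand) is shown because this member rose with both agents; it held 1 E-box core, in capitals, and no antioxidant response element core.
Slc22a4: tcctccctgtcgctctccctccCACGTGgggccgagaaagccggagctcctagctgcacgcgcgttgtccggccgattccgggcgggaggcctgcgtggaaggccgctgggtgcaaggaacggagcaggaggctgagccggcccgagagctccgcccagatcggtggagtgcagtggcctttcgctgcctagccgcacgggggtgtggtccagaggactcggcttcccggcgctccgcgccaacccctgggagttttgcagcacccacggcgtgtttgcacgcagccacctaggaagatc

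The ascorbate carrier Slc23a2 had 28.03, 28.8 and 31.02 FPKM in the 4-OI libraries, 26.4, 27.01 and 28.2 FPKM in the hemin libraries, 17.5, 16.8 and 17.1 FPKM in the Irg1KO-labelled libraries, against 19.8, 21.1 and 21.6 FPKM in the WT vehicle libraries. It was higher with both agents and lower in the Irg1KO-labelled libraries, with no overlap in any of the 3 comparisons. The log2 fold change was 0.61, SE 0.05, adjusted p = 3.64e-13 with 4-OI, 0.44, SE 0.05, adjusted p = 1.43e-08 with hemin and -0.26, SE 0.05, adjusted p = 7.07e-05 in the Irg1KO-labelled libraries. The folate carrier Slc19a1 had 5.64 ± 0.20 FPKM with 4-OI, against 5.30 ± 0.45 FPKM in WT vehicle, and passed in no comparison. The thiamine carrier Slc19a2 had 4.61, 5.06 and 4.56 FPKM in the 4-OI libraries, 5.50, 4.71 and 5.27 FPKM in the Irg1KO-labelled libraries, against 4.21, 4.71 and 4.19 FPKM in the WT vehicle libraries. Its log2 fold change was 0.25, SE 0.10, adjusted p = 0.03, a call lost without 4-OI replicate 2 or WT vehicle replicate 1 or WT vehicle replicate 3 and on the log2 FPKM scale and with upper-quartile factors at adjusted p up to 0.335 with 4-OI. Its Irg1KO-labelled value was 0.25, SE 0.10, adjusted p = 0.0341, a call lost without Irg1KO-labelled replicate 1 or Irg1KO-labelled replicate 3 or WT vehicle replicate 1 or WT vehicle replicate 3 and on the log2 FPKM scale and with RLE size factors or DESeq2 or no filter on low counts at adjusted p up to 0.153.

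Of 11 proton, sodium, calcium and bicarbonate exchangers, 3 were higher and 5 lower with 4-OI, beside 25.4% and 25.0% of all tested genes. The sodium-proton exchangers of family 9 held 3 of the lower ones and no higher one, and their sum was 38.1 ± 1.2 FPKM with 4-OI, against 66.8 ± 0.9 FPKM in WT vehicle. Most of this difference was that of Slc9a9, an exchanger of recycling endosomes, which had 9.43, 9.47 and 9.48 FPKM in the 4-OI libraries, 25.9, 25.8 and 25.2 FPKM in the hemin libraries, 33.7, 32.4 and 32.7 FPKM in the Irg1KO-labelled libraries, against 31.4, 32.2 and 31.9 FPKM in the WT vehicle libraries. The 4-OI libraries lay far below all others, and the hemin libraries below WT vehicle. With 4-OI the log2 fold change was -1.61, SE 0.06, adjusted p = 5.12e-24, and with hemin it was -0.25, SE 0.05, adjusted p = 0.000285. Slc9a7, which acts in the Golgi network, had 2.46, 2.49 and 2.43 FPKM in the 4-OI libraries, 3.38, 3.19 and 3.15 FPKM in the hemin libraries, 3.12, 3.05 and 3.01 FPKM in the Irg1KO-labelled libraries, against 4.22, 4.81 and 4.48 FPKM in the WT vehicle libraries. It was lowest with 4-OI, and all 3 groups lay under WT vehicle without overlap (log2 fold changes -0.77, -0.43 and -0.58 for 4-OI, hemin and the Irg1KO-labelled libraries, adjusted p = 6.91e-11, 3.55e-05 and 2.36e-08).

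The potassium-dependent sodium-calcium exchanger Slc24a3 had 0.55, 0.52 and 0.62 FPKM in the 4-OI libraries, 1.24, 1.56 and 1.28 FPKM in the hemin libraries, against 1.77, 1.75 and 1.81 FPKM in the WT vehicle libraries. It fell with 4-OI, where no library reached the level of any hemin or WT vehicle library (log2 fold change -1.49, SE 0.18, adjusted p = 7.55e-09). The sodium-calcium exchanger Slc8a1 went the opposite way, with 19.7, 18.8 and 21.2 FPKM in the 4-OI libraries, against 12.9, 12.3 and 15.02 FPKM in the WT vehicle libraries (log2 fold change 0.75, SE 0.05, adjusted p = 6.48e-16). The sodium-bicarbonate cotransporter Slc4a7 was higher with hemin, with 18.6, 17.9 and 20.6 FPKM in the hemin libraries, against 15.9, 16.8 and 14.6 FPKM in the WT vehicle libraries (log2 fold change 0.33, SE 0.06, adjusted p = 3.52e-05). Of the 5 cation-chloride cotransporters, which set cell volume, 1 was higher and 1 lower with 4-OI, beside 25.4% and 25.0% of all tested genes. The abundant Slc12a7 was lower, with 39.5, 39.3 and 40.5 FPKM in the 4-OI libraries, against 50.01, 51.3 and 52.5 FPKM in the WT vehicle libraries (log2 fold change -0.23, SE 0.05, adjusted p = 6.48e-05).

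In the sulfate and anion family 26, Slc26a10 had 5.66, 6.92 and 6.28 FPKM in the 4-OI libraries, 3.99, 3.72 and 3.59 FPKM in the hemin libraries, against 3.04, 2.77 and 2.85 FPKM in the WT vehicle libraries. The 4-OI libraries were highest (log2 fold change 1.26, SE 0.11, adjusted p = 6.88e-12), and the value with hemin was 0.42, SE 0.12, adjusted p = 0.0149, a call lost without WT vehicle replicate 2 and on the log2 FPKM scale at adjusted p up to 0.0678. Slc26a11 had 4.03, 4.32 and 3.92 FPKM in the 4-OI libraries, 4.44, 4.17 and 4.13 FPKM in the hemin libraries, against 5.62, 5.70 and 6.91 FPKM in the WT vehicle libraries. Both agents' libraries lay under WT vehicle (log2 fold change -0.42, SE 0.10, adjusted p = 0.000758 with 4-OI and -0.46, SE 0.10, adjusted p = 0.00134 with hemin). Of the phosphate carriers, Slc20a2 had 8.24, 7.50 and 8.14 FPKM in the 4-OI libraries, 8.57, 9.02 and 7.88 FPKM in the Irg1KO-labelled libraries, against 5.07, 6.24 and 5.50 FPKM in the WT vehicle libraries, and was higher in both groups (log2 fold change 0.59, SE 0.09, adjusted p = 8.13e-07 with 4-OI and 0.61, SE 0.09, adjusted p = 4.28e-07 in the Irg1KO-labelled libraries). The more abundant Slc20a1 had 45.6 ± 1.63 FPKM with 4-OI, against 43.1 ± 4.30 FPKM in WT vehicle, and was also called higher (log2 fold change 0.20, SE 0.05, adjusted p = 0.00145, a call lost on the log2 FPKM scale at adjusted p up to 0.312).

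Of the 4 nucleoside carriers, 1 was higher and 1 lower with 4-OI, beside 25.4% and 25.0% of all tested genes. Slc28a2, which concentrates purine nucleosides with sodium, had 6.02, 6.08 and 5.74 FPKM in the 4-OI libraries, 13.1, 13.6 and 13.1 FPKM in the hemin libraries, 14.8, 12.8 and 14.3 FPKM in the Irg1KO-labelled libraries, against 15.6, 14.6 and 15.01 FPKM in the WT vehicle libraries. The 4-OI libraries held less than any other library (log2 fold change -1.23, SE 0.07, adjusted p = 1.33e-16); its counts were fractional in 8 of 12 libraries, so some of its reads were shared with another transcript. The equilibrative carrier Slc29a1 had 42.2 ± 1.62 FPKM with 4-OI, against 43.9 ± 1.68 FPKM in WT vehicle (log2 fold change 0.10, SE 0.06, adjusted p = 0.143). Slc29a3, the lysosomal nucleoside carrier, was higher with hemin, with 18.7, 19.7 and 19.2 FPKM in the hemin libraries, against 15.99, 17.2 and 17.9 FPKM in the WT vehicle libraries (log2 fold change 0.24, SE 0.06, adjusted p = 0.00326, a call lost on the log2 FPKM scale at adjusted p up to 0.0728).

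Of the 2 copper carriers, Slc31a1, the plasma membrane importer, had 29.8, 35.1 and 31.1 FPKM in the 4-OI libraries, 46.6, 46.8 and 47.4 FPKM in the hemin libraries, against 44.7, 49.4 and 47.3 FPKM in the WT vehicle libraries, and its 4-OI libraries lay below all of these others (log2 fold change -0.42, SE 0.05, adjusted p = 3.1e-08). It had 51.1 ± 1.68 FPKM in the Irg1KO-labelled libraries (log2 fold change 0.14, SE 0.05, adjusted p = 0.025, a call lost without Irg1KO-labelled replicate 2 or Irg1KO-labelled replicate 3 or WT vehicle replicate 1 or WT vehicle replicate 3 and on the log2 FPKM scale and with RLE size factors or DESeq2 or no filter on low counts at adjusted p up to 0.177). Slc31a2, found on late endosomes and lysosomes, had 32.3, 34.3 and 35.03 FPKM in the hemin libraries, 34.05, 31.7 and 36.5 FPKM in the Irg1KO-labelled libraries, against 27.4, 26.7 and 28.4 FPKM in the WT vehicle libraries, with both groups higher (log2 fold change 0.37, SE 0.06, adjusted p = 3.58e-05 with hemin and 0.34, SE 0.06, adjusted p = 3.19e-05 in the Irg1KO-labelled libraries). The sugar phosphate carrier Slc37a2 rose with 4-OI and had 88.3, 90.4 and 91.7 FPKM in the 4-OI libraries, against 61.4, 63.00 and 65.2 FPKM in the WT vehicle libraries (log2 fold change 0.65, SE 0.04, adjusted p = 3.93e-15). The lysosomal peptide carrier Slc15a3 fell with 4-OI and had 97.2, 97.3 and 95.3 FPKM in the 4-OI libraries, against 119, 129 and 123 FPKM in the WT vehicle libraries (log2 fold change -0.24, SE 0.05, adjusted p = 8.01e-05). With hemin it had 135 ± 10.1 FPKM (log2 fold change 0.18, SE 0.05, adjusted p = 0.00947, a call lost without hemin replicate 3 or WT vehicle replicate 1 and on the log2 FPKM scale at adjusted p up to 0.146). Slc45a4 was lower with 4-OI, with 7.68, 7.68 and 7.77 FPKM in the 4-OI libraries, against 11.6, 11.3 and 12.6 FPKM in the WT vehicle libraries (log2 fold change -0.48, SE 0.06, adjusted p = 6.33e-09). Of the 5 members of the nucleotide sugar family, which feeds glycosylation in the Golgi, 1 passed with 4-OI, beside 50.4% of all tested genes.

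With hemin, 1 of the 2 choline-like carriers was higher and 1 lower, and 1 of the 2 fatty acid carriers was lower. Of all tested genes, 9.48% were higher and 7.74% lower with hemin. The choline carrier-like Slc44a2 had 19.4, 20.98 and 19.7 FPKM in the hemin libraries, against 15.02, 17.6 and 17.04 FPKM in the WT vehicle libraries (log2 fold change 0.34, SE 0.06, adjusted p = 0.000112). The fatty acid transport protein Slc27a1 had 34.7, 40.5 and 35.4 FPKM in the hemin libraries, against 47.5, 48.9 and 45.8 FPKM in the WT vehicle libraries (log2 fold change -0.32, SE 0.06, adjusted p = 6.64e-05). Slc44a1 had 31.8 ± 1.63 FPKM with hemin, against 35.4 ± 1.05 FPKM in WT vehicle (log2 fold change -0.15, SE 0.05, adjusted p = 0.029, a call lost without hemin replicate 2 or WT vehicle replicate 1 or WT vehicle replicate 2 or WT vehicle replicate 3 and with no filter on low counts or only the 2 groups compared at adjusted p up to 0.132). Slc27a4, another fatty acid transport protein, was not called with hemin (log2 fold change 0.05, SE 0.06, adjusted p = 0.638). The 5 highest called members with hemin whose libraries did not overlap WT vehicle were Slc6a9, Slc22a4, Slc16a9, Slc23a2 and Slc26a10, and the 5 lowest were Slc26a11, Slc9a7, Slc27a1, Slc38a2 and Slc9a9. Slc6a9 alone was at least 2-fold changed with hemin and called, beside 0.634% of all tested genes at least 2-fold higher.

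**Figure D3:**
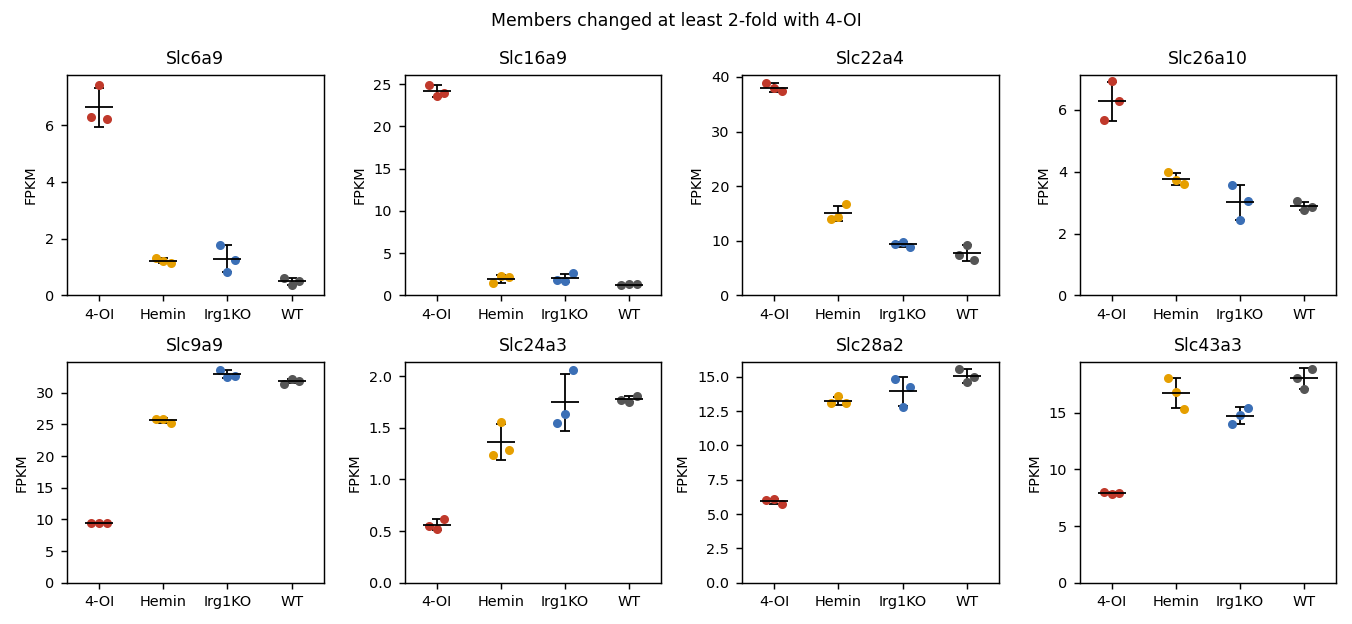
FPKM of the 8 members called with an at least 2-fold change under 4-OI, in the 4-OI, hemin, Irg1KO-labelled and WT vehicle libraries; points are libraries, bars the mean and SD of 3. Slc6a9, Slc16a9, Slc22a4 and Slc26a10 are highest with 4-OI, and Slc9a9, Slc24a3, Slc28a2 and Slc43a3 lowest with 4-OI.

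At least 2-fold changes with 4-OI numbered 4 higher and 4 lower of 83, beside 3.64% and 4.31% of all tested genes.

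Set directly against hemin, 4-OI gave 46 called members (55.4%), 22 higher and 24 lower, beside 42.3% of all tested genes (20.6% higher, 21.7% lower). On the log2(FPKM + 1) scale 15 were higher and 29 lower, beside 14.2% and 28.7% of all tested genes. Doses and hours differed between the agents, at 120 µM for 15 h with 4-OI and 15 µM for 12 h with hemin. Slc16a9 (log2 fold change 3.64, SE 0.11, adjusted p = 5.06e-24), Slc6a9 (log2 fold change 2.55, SE 0.16, adjusted p = 3e-14) and Slc22a4 (log2 fold change 1.42, SE 0.07, adjusted p = 7.11e-18) led the higher members. Slc9a9 (log2 fold change -1.36, SE 0.06, adjusted p = 5.92e-21), Slc24a3 (log2 fold change -1.18, SE 0.19, adjusted p = 4.94e-06) and Slc28a2 (log2 fold change -1.07, SE 0.08, adjusted p = 3.54e-14) led the lower ones. None of these 6 overlapped between the 2 groups. Slc38a2 and Slc16a6 stood above hemin by 0.51 and 0.63 (log2, adjusted p = 2.93e-10 and 2.21e-13). Slc16a10 and Slc31a1 stood below it at -0.75 and -0.47 (log2, adjusted p = 6.15e-15 and 3.68e-09). For Slc26a11 and Slc36a1 no difference between the agents was called (log2 0.04, SE 0.11, adjusted p = 0.828, and log2 0.11, SE 0.05, adjusted p = 0.0983).

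**Figure D4:**
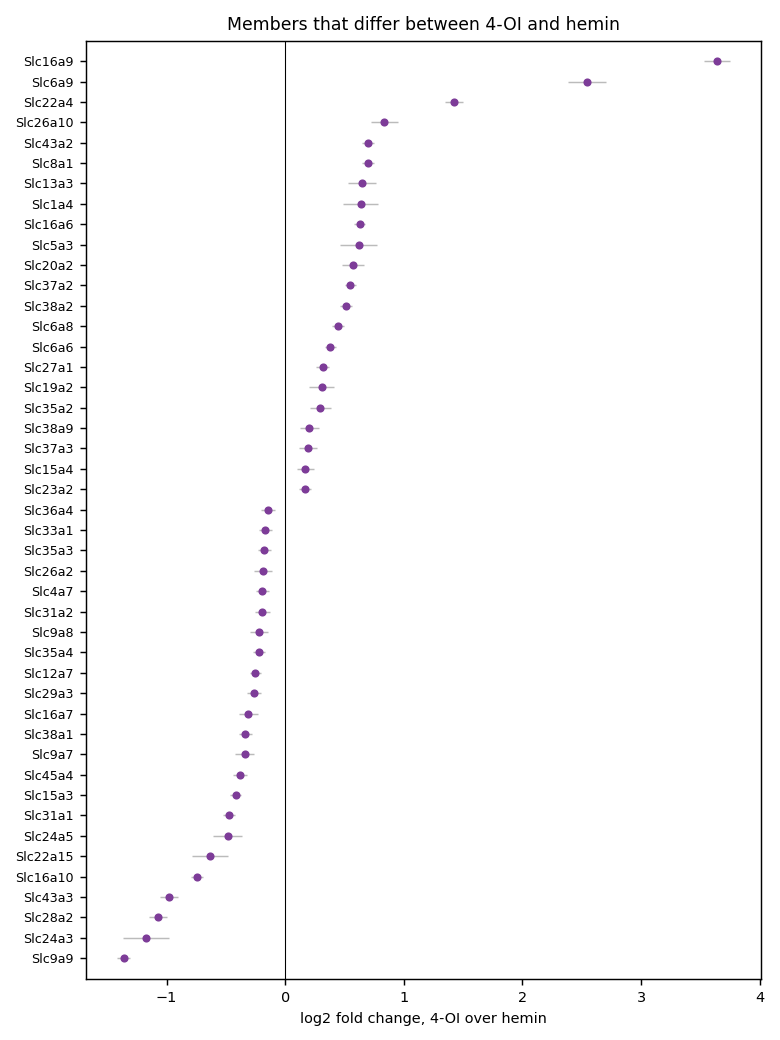
Log2 fold change of 4-OI over hemin for 45 members called between these 2 groups, highest at the top; bars are standard errors. Slc16a9, Slc6a9 and Slc22a4 lie above 1, and Slc28a2, Slc24a3 and Slc9a9 below -1.

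Irg1KO-labelled libraries had 5 of 83 members at least 2-fold higher, beside 11.5% of all tested genes. Among tested genes that averaged at least 0.5 FPKM, as members had to, this share was 8.18%. The lowest log2 fold change of a member was -0.58 for Slc9a7, beside 0.428% of tested genes at least 2-fold lower. The 5 were Slc1a6, Slc1a4, Slc6a9, Slc13a3 and Slc5a3. Slc1a4, a neutral amino acid exchanger, had 2.13, 2.27 and 1.80 FPKM in the 4-OI libraries, 1.45, 1.45 and 1.37 FPKM in the hemin libraries, 6.11, 5.98 and 5.00 FPKM in the Irg1KO-labelled libraries, against 1.87, 1.41 and 1.68 FPKM in the WT vehicle libraries. The Irg1KO-labelled libraries lay above every other library (log2 fold change 1.84, SE 0.12, adjusted p = 4.59e-16). Slc13a3, a sodium-coupled carrier of dicarboxylates such as succinate, had 27.8, 28.5 and 25.2 FPKM in the 4-OI libraries, 16.5, 17.1 and 21.1 FPKM in the hemin libraries, 58.3, 54.8 and 63.8 FPKM in the Irg1KO-labelled libraries, against 19.2, 24.3 and 21.7 FPKM in the WT vehicle libraries. Its Irg1KO-labelled libraries held more than any other (log2 fold change 1.46, SE 0.11, adjusted p = 4.54e-07), and with 4-OI it was higher by a smaller margin (log2 fold change 0.46, SE 0.11, adjusted p = 0.00477).

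Slc5a3 had 0.68, 0.89 and 0.80 FPKM in the 4-OI libraries, 0.61, 0.51 and 0.53 FPKM in the hemin libraries, 1.22, 1.44 and 0.97 FPKM in the Irg1KO-labelled libraries, against 0.55, 0.58 and 0.67 FPKM in the WT vehicle libraries (log2 fold change 1.07, SE 0.13, adjusted p = 1.74e-08 in the Irg1KO-labelled libraries). Slc1a6 had 2.56, 2.08 and 1.91 FPKM in the Irg1KO-labelled libraries, against 0.29, 0.27 and 0.41 FPKM in the WT vehicle libraries, a level that decided its membership. Slc29a1 had 64.3, 64.1 and 60.4 FPKM in the Irg1KO-labelled libraries, against 42.3, 43.7 and 45.6 FPKM in the WT vehicle libraries (log2 fold change 0.55, SE 0.05, adjusted p = 4.71e-11). Slc1a6 and Slc5a3 were rare in all groups. Without Slc1a6, 38 of 82 members were called, 20 higher and 18 lower, and 4 were at least 2-fold higher. Slc41a1, a magnesium carrier, had 3.53, 3.43 and 2.98 FPKM in the Irg1KO-labelled libraries, against 2.80, 2.44 and 2.30 FPKM in the WT vehicle libraries (log2 fold change 0.43, SE 0.11, adjusted p = 0.00176). The potassium-chloride cotransporter Slc12a4 had 22.1, 20.96 and 22.03 FPKM in the Irg1KO-labelled libraries, against 16.1, 17.2 and 17.5 FPKM in the WT vehicle libraries (log2 fold change 0.39, SE 0.06, adjusted p = 4.86e-07). Slc37a1, of the sugar phosphate family, was lower, with 2.15, 2.50 and 1.98 FPKM in the Irg1KO-labelled libraries, against 2.85, 3.25 and 3.14 FPKM in the WT vehicle libraries (log2 fold change -0.46, SE 0.12, adjusted p = 0.00186). Slc9a7, Slc16a6, Slc37a1, Slc16a10 and Slc16a13 were the 5 lowest called members that did not overlap WT vehicle.

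Stromal markers also differed between the Irg1KO-labelled and the WT vehicle libraries. Their sum was 10998 ± 641 CPM in the Irg1KO-labelled libraries, against 1957 ± 219 CPM in WT vehicle (SD, n = 3 each), and all 8 of 8 tested markers of a list of 10 were higher, with a median log2 fold change of 2.36. Dcn and Lum, 2 defining stromal genes, had at most 9 and 4 counts in any library. Osteoblast markers summed to 84.9 ± 10.0 CPM in the Irg1KO-labelled libraries, against 13.03 ± 0.49 CPM in WT vehicle, and 4 of 4 tested were higher, while Bglap was listed in no library. Their part in the carrier differences was not tested.

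**Figure D5:**
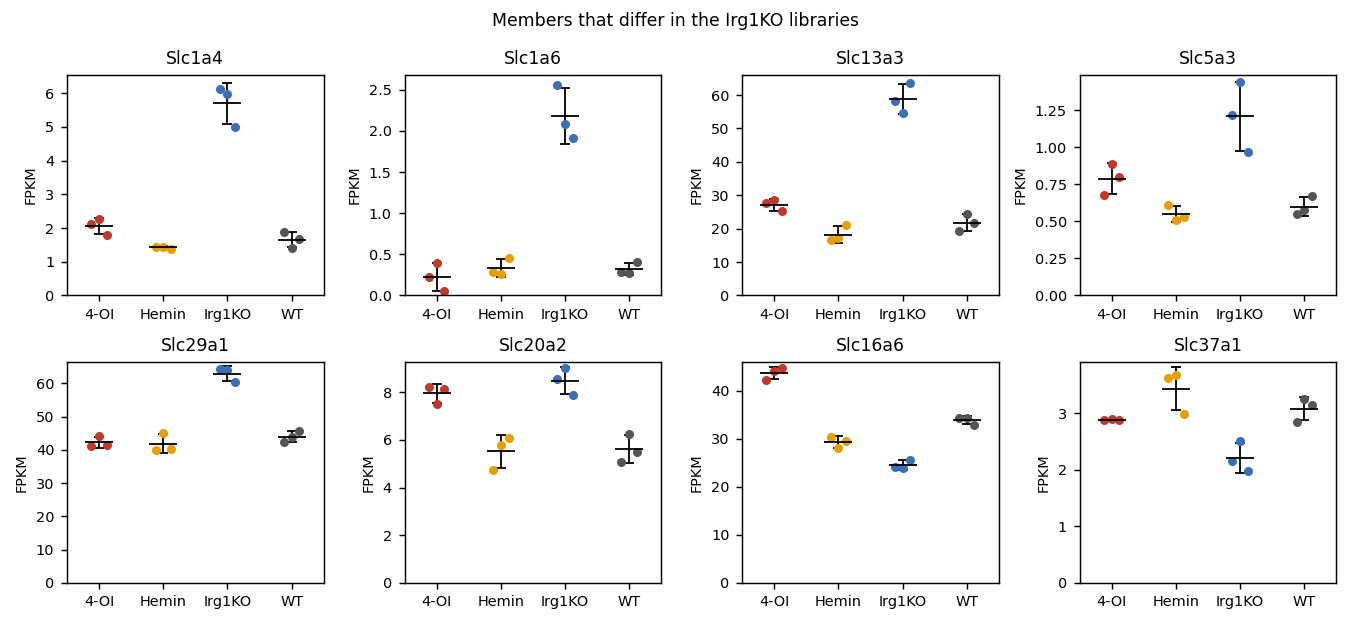
FPKM of 8 members that differ between Irg1KO-labelled and WT vehicle libraries, shown in all 4 groups; points are libraries, bars the mean and SD of 3. Slc1a4, Slc1a6, Slc13a3, Slc5a3 and Slc29a1 are highest in the Irg1KO-labelled libraries, Slc20a2 is high in these and in the 4-OI libraries, and Slc16a6 and Slc37a1 are lowest in the Irg1KO-labelled libraries.

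By the deposited GO component terms, a grouping chosen after the values were seen, 55 members were assigned to the plasma membrane. With 4-OI, 25 of them were higher and 11 lower (65.5%), beside 65.1% of all members and 50.4% of all tested genes. With hemin, 11 were higher and 7 lower (32.7%), beside 27.7% of all members and 17.2% of all tested genes. In the Irg1KO-labelled libraries 16 were higher and 11 lower (49.1%), beside 47.0% of all members and 39.8% of all tested genes. Of the 13 members with a Golgi term, 1 was higher and 5 lower with 4-OI (46.2%), beside 50.4% of all tested genes. Of the 7 with a lysosome term, 3 were higher and 2 lower with 4-OI (71.4%), beside the same 50.4%. With hemin, 3 of these 7 were higher and 1 lower (57.1%), beside 17.2% of all tested genes. A member can hold several terms.

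The members that passed in none of the 3 comparisons with WT vehicle included Slc12a2, Slc17a5, Slc19a1, Slc22a21, Slc22a5, Slc26a2, Slc26a6, Slc35a3, Slc35a5, Slc37a4, Slc41a3, Slc5a2, Slc5a6 and Slc9a5. Their log2 fold changes against WT vehicle ran from -0.36 (Slc22a21 with 4-OI) to 0.32 (Slc5a2 with hemin). Other members, each called in at least 1 comparison, included Slc12a9, Slc15a4, Slc17a9, Slc22a18, Slc24a5, Slc29a2, Slc35a1, Slc35a2, Slc36a4, Slc37a3, Slc38a6, Slc38a7 and Slc9a8. Their log2 fold changes against WT vehicle ran from -0.29 (Slc24a5 with 4-OI) to 0.67 (Slc22a18 with 4-OI).

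Members described above had further calls against WT vehicle, given here as log2 fold changes with 4-OI. Slc12a4 was higher at 0.25, a call lost on the log2 FPKM scale at adjusted p up to 0.116. Slc1a4 was higher at 0.50, a call lost on the log2 FPKM scale at adjusted p up to 0.0684. Slc27a4 was higher at 0.18, a call lost without 4-OI replicate 1 or 4-OI replicate 2 and on the log2 FPKM scale at adjusted p up to 0.638. Slc31a2 was higher at 0.17, a call lost without 4-OI replicate 1 or 4-OI replicate 2 or WT vehicle replicate 2 and on the log2 FPKM scale and with upper-quartile factors at adjusted p up to 0.737. Slc38a2 was higher at 0.25, a call lost on the log2 FPKM scale at adjusted p up to 0.0998. Slc41a1 was higher at 0.29, a call lost without 4-OI replicate 2 or WT vehicle replicate 2 or WT vehicle replicate 3 and on the log2 FPKM scale and with upper-quartile factors or DESeq2 at adjusted p up to 0.43. Slc44a2 was higher at 0.24, a call lost on the log2 FPKM scale at adjusted p up to 0.158. Slc4a7 was higher at 0.14, a call lost without 4-OI replicate 2 or 4-OI replicate 3 or WT vehicle replicate 1 or WT vehicle replicate 3 and on the log2 FPKM scale and with upper-quartile factors at adjusted p up to 0.934. Slc5a3 was higher at 0.55, a call lost on the log2 FPKM scale at adjusted p up to 0.11. Slc38a10 was lower at -0.13, a call lost without 4-OI replicate 3 or WT vehicle replicate 3 at adjusted p up to 0.196. Slc41a2 was higher at 0.33. Slc4a2 was higher at 0.17, a call lost without 4-OI replicate 2 or 4-OI replicate 3 and on the log2 FPKM scale at adjusted p up to 0.669.

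With hemin, the further calls of described members were these. Slc12a4 was higher at 0.16, a call lost without hemin replicate 2 or hemin replicate 3 or WT vehicle replicate 1 and on the log2 FPKM scale and with RLE size factors or upper-quartile factors or DESeq2 or no filter on low counts or only the 2 groups compared at adjusted p up to 0.25. Slc16a6 was lower at -0.16, a call lost without hemin replicate 2 or WT vehicle replicate 1 or WT vehicle replicate 2 at adjusted p up to 0.141. Slc1a5 was higher at 0.24, a call lost without hemin replicate 2 and on the log2 FPKM scale at adjusted p up to 0.0837. Slc41a2 was higher at 0.21, a call lost without hemin replicate 2 or WT vehicle replicate 1 and on the log2 FPKM scale at adjusted p up to 0.0886. Slc43a2 was higher at 0.22, a call lost on the log2 FPKM scale at adjusted p up to 0.0541. Slc35a4 was higher at 0.15, a call lost without hemin replicate 1 or hemin replicate 2 or hemin replicate 3 or WT vehicle replicate 1 or WT vehicle replicate 2 or WT vehicle replicate 3 and on the log2 FPKM scale and with RLE size factors or upper-quartile factors or DESeq2 or no filter on low counts or only the 2 groups compared at adjusted p up to 0.291.

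Described members were further called in the Irg1KO-labelled libraries as follows. Slc16a7 was lower at -0.18, a call lost without Irg1KO-labelled replicate 1 or Irg1KO-labelled replicate 2 or WT vehicle replicate 2 or WT vehicle replicate 3 at adjusted p up to 0.188. Slc38a1 was lower at -0.18. Slc38a10 was higher at 0.21. Slc43a3 was lower at -0.27. Slc4a2 was higher at 0.14, a call lost without Irg1KO-labelled replicate 1 or Irg1KO-labelled replicate 2 or WT vehicle replicate 1 or WT vehicle replicate 3 and on the log2 FPKM scale and with RLE size factors or upper-quartile factors or DESeq2 or no filter on low counts or only the 2 groups compared at adjusted p up to 0.261. Slc4a7 was higher at 0.15, a call lost without Irg1KO-labelled replicate 1 or Irg1KO-labelled replicate 3 or WT vehicle replicate 1 or WT vehicle replicate 3 and on the log2 FPKM scale and with RLE size factors or DESeq2 or no filter on low counts at adjusted p up to 0.203. Slc8a1 was lower at -0.13, a call lost without Irg1KO-labelled replicate 1 or Irg1KO-labelled replicate 2 or WT vehicle replicate 2 or WT vehicle replicate 3 and on the log2 FPKM scale at adjusted p up to 0.109. Slc33a1 was lower at -0.15, a call lost without Irg1KO-labelled replicate 1 or WT vehicle replicate 2 at adjusted p up to 0.13.

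Carriers outside the 83 members that share their cargo moved as well. Their counts stand beside all tested genes, of which 25.4% were higher and 25.0% lower with 4-OI. With hemin these shares were 9.48% and 7.74%, and in the Irg1KO-labelled libraries 23.5% and 16.3%. In the SLC7 and SLC3 families of cationic and heteromeric amino acid carriers, 3 of 10 tested genes were higher and 5 lower with 4-OI, 5 were higher and 1 lower with hemin, and 4 were higher and 3 lower in the Irg1KO-labelled libraries. The cystine-glutamate exchanger Slc7a11 had a log2 fold change of 5.17 with 4-OI, counted from fractional estimates in every library, and Slc7a8, Slc7a5 and Slc7a2 had -0.60, -0.63 and -1.18. Of 6 facilitative sugar carriers, 1 was higher and 2 lower with 4-OI, with Slc2a1 at 1.56 and Slc2a6 at -2.33 (log2), and 3 were higher and 1 lower with hemin, with Slc2a1 at 0.84 and Slc2a6 at 0.90. In the Irg1KO-labelled libraries 1 was higher and 2 lower. Of 6 lactate genes, a list that also holds accessory proteins and lactate dehydrogenases, 3 were higher with 4-OI. Among them were the lactate exporter Slc16a3 at 0.67 and the accessory protein Emb at 0.96 (log2). With hemin 2 were higher, and in the Irg1KO-labelled libraries 1 was higher and 3 lower, with Slc16a3 at -0.49 and Slc16a1 at -0.20.

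The sodium-potassium pump builds the sodium gradient that many members use. Of its 5 tested subunits and regulators, 4 were higher with 4-OI, beside 25.4% of all tested genes, with Atp1b3 at 0.32 (log2). With hemin 3 were higher, beside 9.48%. In the Irg1KO-labelled libraries 1 was higher (Atp1b1 at 1.52) and 1 lower, beside 23.5% and 16.3%. Of 5 kinases and kinase partners of cation-chloride cotransporters, 1 was lower with 4-OI, beside 25.0% of all tested genes. It was Cab39 (-0.12, log2), which binds such kinases and is not itself a kinase. In the Irg1KO-labelled libraries 2 were higher, beside 23.5%, with Stk39 at 2.13 and Wnk3 at 2.92. Of 15 genes of lysosomal amino acid sensing and mTORC1, 1 was higher and 7 lower with 4-OI, beside 25.4% and 25.0%. Fnip1 was at -0.75 and Rragd at -0.89. With hemin 4 were lower, beside 7.74%, with Rragd at -1.37. In the Irg1KO-labelled libraries 3 were higher and 3 lower, beside 23.5% and 16.3%.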

How the data were processed

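RNA sequencing of 12 libraries gave 1 deposited table per library. The submitters' processing notes name the tools HISAT2, StringTie, Bowtie2 and RSEM and the builds GRCm39 and mm39, with no versions. The authors deposited expected counts, estimated reads per gene, of which 90.62 to 92.03% of those above 0 are whole numbers. They deposited FPKM, per the file headers, which divides counts by transcript length and library total. They also deposited transcript lengths and other annotation columns, from which only the GO component was used. Unlisted genes were taken as 0.

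Expected counts were rounded and tested with edgeR 4.0.16 (R 4.3.3, limma 3.58.1) by the quasi-likelihood F test with robust dispersion, after filterByExpr and TMM scaling, in 1 fit of all 12 libraries. Genes with a Benjamini-Hochberg adjusted p under 0.05 over 12148 genes are called; all 83 members passed the filter. Each SE was derived from the fold change and the F statistic. Between replicates, chi-square per degree of freedom was 2.40 to 4.88, more than counting noise. The code was tested on simulated data with 200 changed genes.

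Members and lists were chosen with earlier results of these data known. Named by rule were the 5 highest and 5 lowest called members without overlap per comparison, called members changed at least 2-fold, the highest member of each family, the 10 highest on average, 3 rows on either side of the threshold, and up to 4 genes per pathway list. Other members named were chosen after their values were seen. Same-numbered replicates showed no sign of pairing and were treated as unpaired. The alternatives tried were DESeq2 1.42.0, scaling by RLE or by the upper quartile, limma-trend on FPKM (log2 after adding 1 or 0.1), no low-count filter, a mean FPKM of at least 1, only the groups compared, a replicate block and leaving out each replicate. Of 83 members, 62 matched the RefSeq promoter table (GRCm38.p6), which gave 86 windows. Counts were fractional, and so shared with other transcripts, in 8 members, among them Slc28a2, Slc35a1, Slc22a5 and Slc22a21. Tables were read with Python and plotted with matplotlib. A few members and pathway genes entered the fit and the counts but are not reported here by name.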

Additional observations from a re-analysis of the deposited data

How the results depend on the processing

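No member that passed the main test changed direction under any alternative. On the log2 FPKM scale, with either 1 or 0.1 added, 17 members were higher and 33 lower with 4-OI, against 35 and 19 in the main test, and 8 were higher with hemin, against 16; this scale divides by library totals without TMM, and its median over all tested genes moved by -0.11 or -0.14 with 4-OI. Of all tested genes, 14.3% or 14.5% were then higher and 37.9% or 38.2% lower with 4-OI, and 5.11% or 5.14% were higher with hemin. All other alternatives kept the counts within 1.5 times. Leaving out 1 library gave 27 to 33 higher and 16 to 19 lower members with 4-OI, 12 to 17 and 5 to 8 with hemin, 16 to 19 and 12 to 18 in the Irg1KO-labelled libraries, and 18 to 21 and 19 to 22 for 4-OI against hemin. Called members that kept their call under every alternative numbered 32 of 54 with 4-OI, 13 of 23 with hemin, 24 of 39 in the Irg1KO-labelled libraries and 31 of 46 for 4-OI against hemin. The replicate block gave 35 higher and 19 lower, 16 and 7, 21 and 18, and 22 and 23 for the same 4 comparisons. Deviations from the group mean correlated at -0.0787 to 0.0666 between same-numbered libraries. No pairing was thus seen, though a weak one could be missed. Members with few counts, such as Slc1a6 with as few as 1, are the least precise.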
